A study of Homo sapiens with 6 samples.

Results

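The genes of mitosis and the G2/M transition measured here are 51 genes chosen by symbol from the per-library count files. They cover the kinases and cyclins of mitotic entry, the spindle checkpoint, the anaphase machinery, the chromosomal passenger complex, the kinetochore, the mitotic kinesins, the spindle, cytokinesis and the mitotic chromosome. All 51 were present among the 38986 gene symbols of the files, and all 51 passed the filter on low counts that left 12938 genes for testing. The fewest counts of any member in any library were 138, for Spc24.

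The study sequenced polyadenylated RNA from 6 libraries in 2 groups of 3. One group is labelled as 293T cells with STAT6 overexpression and the other as 293T Mock cells of genotype WT. The series' design text describes both as mCherry-positive cells, carrying wild-type STAT6 or Mock, and states an interest in how STAT6 sustains mitochondrial gene expression. The vector and promoter that drive STAT6 are not named in the labels, and 293T is an established human embryonic kidney line with SV40 large T antigen. Nothing in the labels states that same-group libraries are separate cultures. The p-values therefore rest on a spread between libraries that could be technical only.

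The files disagree with the labels on what was sequenced. The symbols are in mouse form: 0 of the 51 members had the exact spelling of a human symbol, and 0 rows were named STAT6 in human form. Mouse Stat6 was at 95.2, 95.5 and 92.8 CPM (counts per 1000000 of the TMM-adjusted library total) in the libraries labelled Mock and at 35.1, 33.6 and 32.1 CPM in those labelled STAT6. Stat6 was thus lower where the label says overexpression (log2 fold change -1.49, SE 0.04, adjusted p = 7.47e-26, edgeR), and every direction below follows the labels alone. Among markers of embryonic kidney, Pax8 and Six2 had 0 counts in every library. The list of 7 summed to 3.14 to 3.54 CPM under the STAT6 label and to at most 0.0431 CPM under the Mock label. That sum is mostly Lhx1, at 3.41, 3.04 and 2.94 CPM under the STAT6 label and 0 under the Mock label. Lhx1 was called higher (log2 fold change 9.19, adjusted p = 8.37e-16, edgeR). All 7 listed melanocyte markers were detected, and together they took 16705 to 16841 CPM under the STAT6 label and 14404 to 14750.0 CPM under the Mock label. The list did not move as one: Tyr went from 303 ± 5.29 to 29.1 ± 0.758 CPM (-3.38) and Pmel was lower (-0.06, adjusted p = 0.0488), while Dct (0.54), Sox10 (0.53), Mitf (0.19) and Tyrp1 (0.09) were higher and Mlana did not pass (0.03). Fibroblast markers summed to 78.5 to 84.9 against 18.7 to 20.7 CPM, with Dcn, Lum and Thy1 at 0 in the libraries labelled STAT6. That sum is mostly Col1a1 (log2 fold change 4.02), whereas Col1a2 was lower (-2.64) and Pdgfra did not pass (0.34). Macrophage markers summed to 3.72 to 4.59 against 1.59 to 1.87 CPM, with Adgre1 at 0 throughout. Of these, Cd68 (log2 fold change 1.86) and Lyz2 (1.34) were called higher and Cd14 did not pass (-0.32). Keratinocyte markers summed to 5.51 to 7.30 against 1.54 to 3.15 CPM, with Epcam at 0 throughout. Of these, Cdh1 (1.92) and Krt14 (1.23) were called higher and Krt5 did not pass (0.55). Endothelial markers summed to 0.588 to 1.03 against at most 0.262 CPM, mostly from Pecam1, with Cdh5 at 0 throughout. Pecam1 was at 0.777, 0.928 and 0.441 CPM under the STAT6 label and at most 0.229 CPM under the Mock label. It did not pass the filter on low counts. T cell markers summed to at most 0.0868 CPM in any library, with Cd3e, Cd3g and Cd2 at 0. The part of these differences in the results below was not tested.

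As background, cells enter mitosis when cyclin B bound to the kinase CDK1 is activated by CDC25 phosphatases, with Polo-like and Aurora kinases acting beside it. Kinetochores then attach chromosomes to spindle microtubules, and the spindle checkpoint holds back the anaphase-promoting complex (APC/C) until attachment is complete. Transcripts of most of these genes rise in G2 and M under the MuvB, B-MYB and FOXM1 factors, and are held down in resting cells and after p53 activation by the DREAM complex.

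Most of the mitotic genes were lower in the libraries labelled STAT6. Of the 51 members, 46 were lower, 3 were higher (Cdk1, Gtse1 and Anln) and 2 did not pass the threshold (Pttg1 and Spc25) by edgeR's quasi-likelihood test with Benjamini-Hochberg adjustment at 0.05. The background was wide: of all genes tested 72.6% were called, 36.8% as lower and 35.8% as higher. The median log2 fold change of the members was -0.53, with quartiles at -0.65 and -0.26. For all genes tested the median was -0.00 and the quartiles were -0.32 and 0.40. The shifts were modest in size. Only Cdc25b and Birc5 were at least 2-fold lower, where 4.96% of all genes were, and no member was at least 2-fold higher (background 10.6%). A test for a change beyond 1.5-fold called 12 members lower and 0 higher, against 7.51% and 14% of all genes.

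The replicates were close. The 3 libraries labelled Mock differed little in member level, and the 3 labelled STAT6 each had 48 of the 51 members below the mean of the Mock libraries. The share of all genes below that mean was not computed. The median log2 fold change of all genes tested was -0.00, and 36.8% of them were called lower. In log2 units relative to that mean, the members' median was -0.52, -0.49 and -0.50 in STAT6 replicates 1, 2 and 3. The groups did not overlap for 47 members with STAT6 below (37.7% of all genes) and for 2 with STAT6 above (36.9% of all genes). The coefficient of variation between libraries had a median over members of 2.20% under the STAT6 label and 3.08% under the Mock label. Its highest values were 12.1% for Spc24 and 9.86% for Cenpf. Together the members took 0.576%, 0.581% and 0.569% of counts under the STAT6 label and 0.832%, 0.850% and 0.832% under the Mock label. Their summed level was 5907 ± 44.4 against 8175 ± 141 CPM (SD, n = 3), a sum in which Mki67 has the largest part. These are bulk libraries, in which fewer cells in G2 and mitosis and less of these RNAs per cell cannot be told apart.

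**Figure D1:**
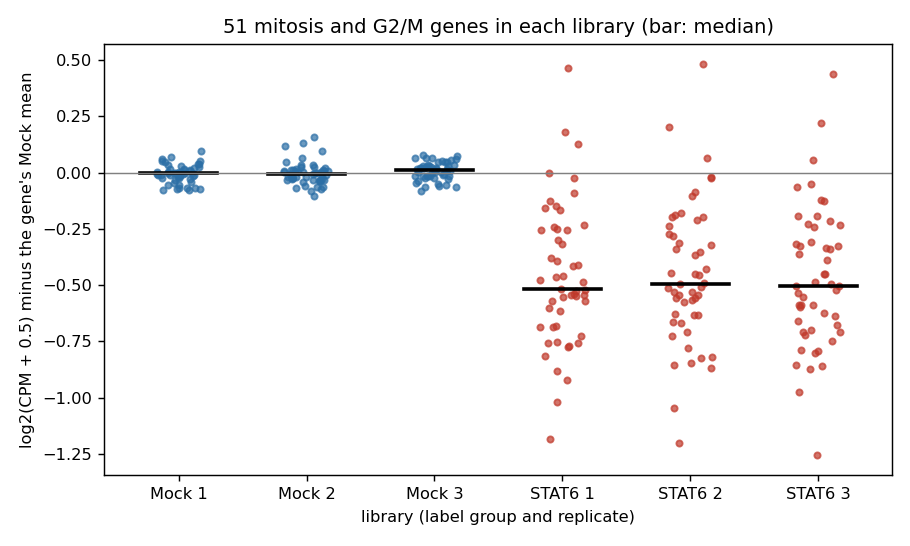
Level of each of the 51 mitosis and G2/M genes in each library, as log2(CPM + 0.5) minus the gene's mean over the 3 Mock libraries. Each point is a gene and each bar a library's median. The 3 medians of the libraries labelled STAT6 lie between -0.52 and -0.49.

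**Figure D2:**
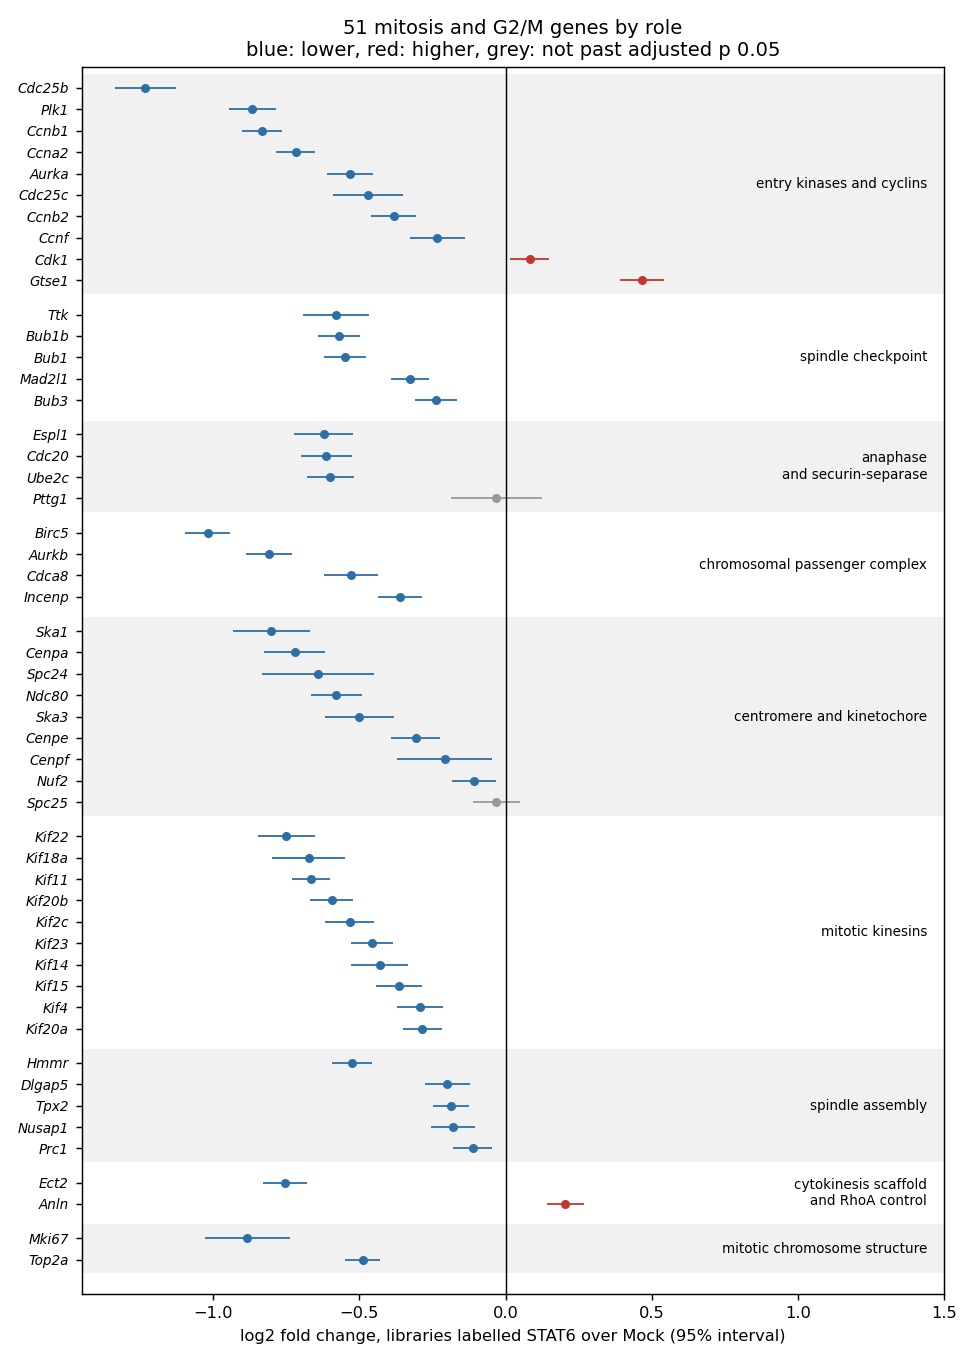
Log2 fold change of each member, libraries labelled STAT6 over those labelled Mock, with its 95% interval from the edgeR fit, grouped by role. Points left of 0 are lower in the libraries labelled STAT6; 46 are called lower, 3 higher, and Pttg1 and Spc25 are not past the threshold.

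Mitotic entry genes held both the largest fall and the largest rise among the members. They numbered 10, of which 8 were called lower and 2 higher (36.8% and 35.8% of all genes were). The median was -0.50 in log2 units. Cdc25b, a phosphatase that starts the activation of CDK1-cyclin B, stood at 54.1, 55.8 and 56.2 CPM in the libraries labelled Mock and at 24.1, 23.8 and 22.9 CPM in those labelled STAT6. The groups were widely apart (-1.23 in log2 units, SE 0.05, adjusted p = 1.20e-21), and only 3.57% of genes tested had a lower log2 fold change. Its relative Cdc25c, which acts on the same complex, went from 33.0 ± 1.63 to 23.8 ± 0.957 CPM (-0.47). The test of the difference between them is given with the other pairs below.

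The 4 cyclins fell (36.8% of all genes were called lower), and the kinase gene Cdk1 did not. Ccnb1, the main mitotic cyclin, had 225, 216 and 221 CPM under the Mock label and 125, 124 and 122 CPM under the STAT6 label (-0.83, SE 0.03, adjusted p = 4.60e-22). The groups were far apart. Reads of Ccnb1 may be shared with a pseudogene row, Ccnb1-ps, which held 65 to 75 counts in each library labelled STAT6 and 110 to 172 in each labelled Mock. Ccna2, the cyclin of S phase and early mitosis, went from 303, 289.6 and 291 CPM to 174, 185 and 178 CPM (-0.72, SE 0.03, adjusted p = 2.45e-20). Ccnb2, a second B-type cyclin, had a log2 fold change of -0.38, and Ccnf, an F-box protein that takes part in degrading cell cycle proteins, of -0.23.

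Cdk1, the catalytic partner of the B-type cyclins, was at 235, 234 and 248 CPM in the libraries labelled Mock and at 261, 249.7 and 248 CPM in those labelled STAT6. The groups overlapped, and the call as higher (0.08, SE 0.03, adjusted p = 0.0255) was lost under several alternatives. With library totals alone the log2 fold change was 0.01 (adjusted p = 0.830), with upper-quartile scaling 0.07 (0.0687) and with no filter on low counts 0.07 (0.116). Without STAT6 replicate 1 the adjusted p was 0.194, without Mock replicate 1 it was 0.117 and without Mock replicate 2 it was 0.0786. The 95% interval of the value 0.08 reached from 0.02 to 0.15.

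The mitotic kinases fell as well. Plk1, the Polo-like kinase that promotes entry and spindle formation, went from 132, 134 and 145 CPM to 74.0, 77.3 and 74.4 CPM (-0.87, SE 0.04, adjusted p = 2.55e-20). Aurka, the centrosomal Aurora kinase, fell by 0.53 on the log2 scale, from 103 ± 3.73 to 71.3 ± 1.03 CPM. Gtse1, a microtubule-binding protein of G2 and mitosis that also restrains p53, went the other way. It stood at 74.7, 75.3 and 73.7 CPM under the Mock label and at 103, 105 and 101 CPM under the STAT6 label, with no overlap (0.47, SE 0.04, adjusted p = 2.28e-13). This was the largest rise among the 51 members.

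All 5 spindle checkpoint genes were lower (36.8% of all genes were), with log2 fold changes from -0.58 to -0.24. Bub1b, which encodes BubR1, an inhibitor of CDC20, went from 134, 133 and 135 CPM to 91.1, 90.8 and 88.4 CPM (-0.57, SE 0.04, adjusted p = 2.29e-16). Bub1, the kinase that marks kinetochores for checkpoint proteins, went from 146, 146 and 144 CPM to 99.7, 98.3 and 100.3 CPM (-0.55, SE 0.03, adjusted p = 3.31e-16). Neither gene overlapped between groups (37.7% of all genes did not, with STAT6 below). The difference of the log2 levels of Bub1 and Bub1b was nearly the same in both groups, 0.14 ± 0.04 against 0.12 ± 0.02 (SD, n = 3). Ttk, the kinase MPS1 at the head of the checkpoint, was at 41.9, 41.6 and 43.1 CPM under the Mock label and at 30.0, 28.8 and 25.8 CPM under the STAT6 label (-0.58). The log2 fold change was -0.33 for Mad2l1, which encodes MAD2, and -0.24 for Bub3, the partner of both BUB proteins.

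Of the 4 genes of anaphase onset, 3 were lower by similar amounts (36.8% of all genes were lower) and Pttg1 did not pass. Cdc20, the mitotic activator of the APC/C, went from 68.6, 67.4 and 69.7 CPM to 45.0, 44.1 and 45.4 CPM (-0.61, SE 0.04, adjusted p = 6.07e-15). Ube2c, the ubiquitin-conjugating enzyme of the APC/C, went from 96.5, 95.9 and 102 CPM to 65.9, 63.3 and 65.1 CPM (-0.60, SE 0.04, adjusted p = 1.30e-15). Espl1, the separase that cuts cohesin, went from 56.7, 55.1 and 52.9 CPM to 34.0, 37.8 and 35.1 CPM (-0.62, SE 0.05, adjusted p = 1.60e-13). Pttg1 encodes securin, the inhibitor of separase. It was at 13.3 CPM in each Mock library and at 13.1, 13.1 and 12.8 CPM in the libraries labelled STAT6. These values did not overlap, yet the difference of -0.03 was within the error of the fit (SE 0.08, adjusted p = 0.710). Its 95% interval ran from -0.19 to 0.12.

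The chromosomal passenger complex, which corrects attachments and then directs cytokinesis, was lower in all 4 subunits. Birc5, which encodes survivin, had the smallest adjusted p of the 51 members. Its levels were 141, 142 and 149 CPM in the libraries labelled Mock and 70.8, 69.4 and 73.1 CPM in those labelled STAT6 (-1.02, SE 0.04, adjusted p = 5.47e-23). Aurkb, the kinase of the complex, went from 109, 109 and 109.7 CPM to 63.7, 60.4 and 62.3 CPM (-0.81, SE 0.04, adjusted p = 9.26e-20). Cdca8, which encodes borealin, went from 76.1, 74.9 and 80.7 CPM to 55.9, 54.7 and 49.9 CPM (-0.53, SE 0.05, adjusted p = 1.08e-12). The scaffold Incenp fell least, by 0.36 on the log2 scale, from 126 ± 4.26 to 98.3 ± 2.27 CPM. None of the 4 overlapped between groups. Of all genes tested, 36.8% were called lower and 37.7% did not overlap with STAT6 below.

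**Figure D3:**
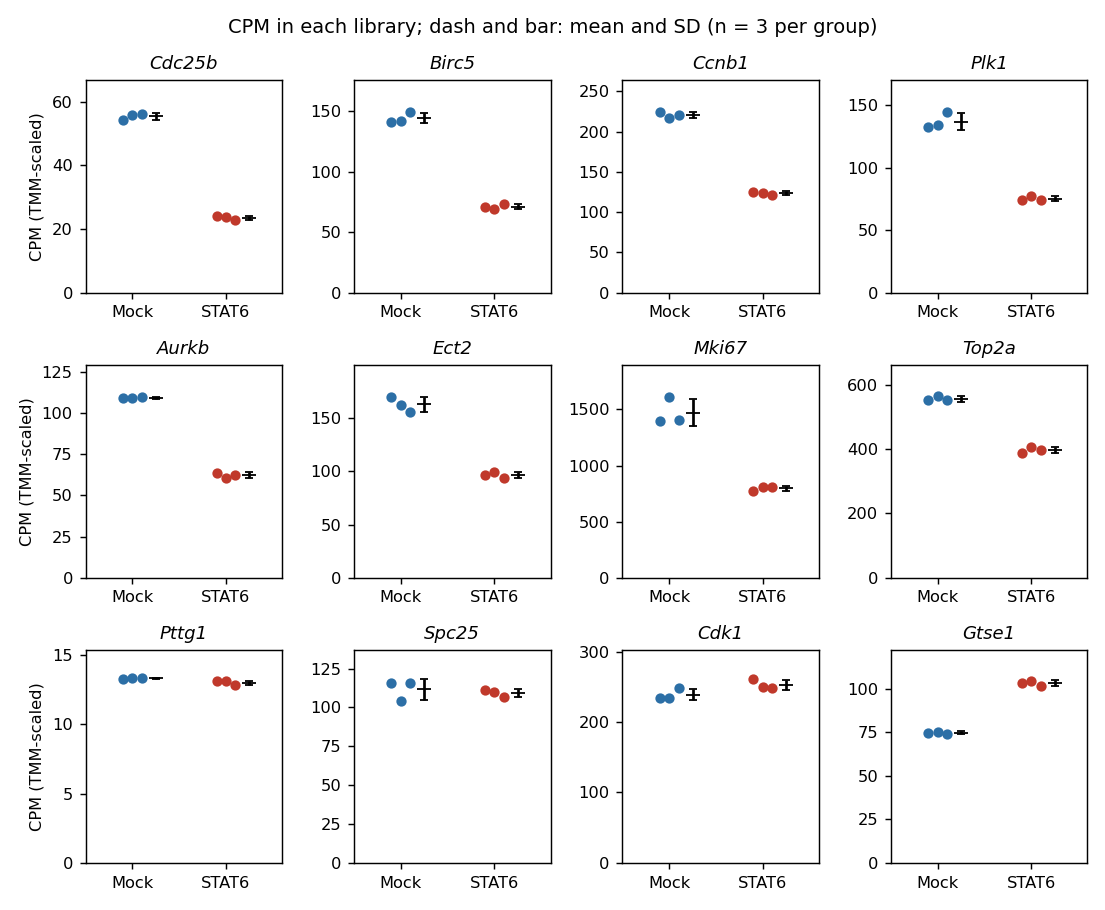
CPM of 12 members in each of the 6 libraries, on axes that start at 0, with mean and SD (n = 3) beside the points. Cdc25b, Birc5, Ccnb1, Plk1, Aurkb, Ect2, Mki67 and Top2a are lower in the libraries labelled STAT6, and Gtse1 is higher. Pttg1 and Spc25 are not past the threshold. Cdk1 is called higher, a call lost under several alternatives. The groups overlap for Cdk1 and Spc25.

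Centromere and kinetochore genes were mostly lower, 8 of 9 (36.8% of all genes were), and Spc25 did not pass. Ska1, a subunit of the complex that keeps kinetochores on shrinking microtubules, went from 27.0, 28.4 and 29.5 CPM to 16.9, 15.3 and 16.6 CPM (-0.80, SE 0.06, adjusted p = 2.40e-13). Its partner Ska3 fell by 0.50 on the log2 scale. Cenpa, the histone H3 variant that marks centromeres, went from 62.7, 55.4 and 57.9 CPM to 36.2, 36.7 and 33.7 CPM (-0.72, SE 0.05, adjusted p = 6.43e-15).

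The NDC80 complex is the main microtubule coupler of the kinetochore and has 4 subunits. Of these, 3 were called lower (36.8% of all genes were). Ndc80 went from 69.3, 69.5 and 70.9 CPM to 46.9, 47.4 and 46.3 CPM (-0.58, SE 0.04, adjusted p = 1.89e-14), and Spc24 fell by 0.64 from a low level of 12.6 ± 0.647 CPM. Nuf2, the direct partner of Ndc80, was lower by only 0.11 (95% interval of the log2 fold change -0.18 to -0.03). Spc25, the direct partner of Spc24, was at 116, 104 and 115 CPM under the Mock label and at 111, 109.9 and 107 CPM under the STAT6 label. The groups overlapped (-0.03, SE 0.04, adjusted p = 0.476), and the 95% interval reached from -0.11 to 0.05. Spc25 was called lower with library totals alone (-0.11, adjusted p = 0.0193) and without Mock replicate 2 (-0.09, 0.0337).

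The large kinetochore proteins CENP-E, a motor, and CENP-F fell modestly. Cenpe went from 198, 225 and 202 CPM to 167, 172 and 166 CPM (-0.31). Cenpf went from 236, 278 and 235 CPM to 212, 218 and 217 CPM (-0.21, adjusted p = 0.0280). Mock replicate 2 was the highest library for both genes. The Cenpf call was lost without STAT6 replicate 1 (adjusted p = 0.0839) or STAT6 replicate 3 (0.0683).

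All 10 mitotic kinesins were lower, none overlapped between groups, and their log2 fold changes spanned -0.75 to -0.28. Of all genes tested, 36.8% were called lower and 37.7% did not overlap with STAT6 below. Kif22, the chromokinesin that pushes chromosome arms outward, went from 57.9, 61.1 and 63.7 CPM to 35.3, 36.6 and 37.0 CPM (-0.75, SE 0.05, adjusted p = 4.43e-16). Kif11, the Eg5 motor that separates spindle poles, went from 256, 256 and 249 CPM to 158, 163 and 159 CPM (-0.67, SE 0.03, adjusted p = 1.46e-19). Kif15, which can back up Eg5, fell by 0.36 on the log2 scale. Kif20b, a kinesin of late cytokinesis, went from 172, 177 and 170.0 CPM to 118, 116 and 109 CPM (-0.60, SE 0.04, adjusted p = 8.56e-17).

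Kif20a, which carries the passenger complex to the central spindle, fell least of the kinesins (-0.28). Kif18a, which damps chromosome movements at the metaphase plate, and the microtubule depolymerase Kif2c had log2 fold changes of -0.67 and -0.53. The central spindle motors Kif23, Kif14 and Kif4 had log2 fold changes of -0.46, -0.43 and -0.29. The files also list a pseudogene row for Kif4, with 0 counts in every library.

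Genes of spindle assembly were all called lower, but 4 of the 5 only slightly. Hmmr, a spindle pole protein that is also known as a hyaluronan receptor, went from 176, 174 and 171 CPM to 121, 122 and 118 CPM (-0.53, SE 0.03, adjusted p = 5.00e-16). Tpx2, the activator of Aurora A on the spindle, went from 297, 298 and 299 CPM to 266, 263 and 257 CPM (-0.19, SE 0.03, adjusted p = 1.43e-06). Dlgap5, a protein of kinetochore fibres, went from 93.3, 91.8 and 94.3 CPM to 83.4, 80.4 and 79.4 CPM (-0.20, adjusted p = 1.87e-05). Nusap1, a microtubule binder, and Prc1, the bundler of the central spindle, had log2 fold changes of -0.18 and -0.11. The groups did not overlap for any of the 5. Of all genes tested, 36.8% were called lower and 37.7% did not overlap with STAT6 below.

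Both cytokinesis genes passed the test, in opposite directions. The test called 36.8% of all genes lower and 35.8% higher. Groups did not overlap for 37.7% of all genes with STAT6 below and for 36.9% with STAT6 above. Ect2, the exchange factor that activates RhoA at the cleavage furrow, went from 170.1, 163 and 156 CPM to 96.3, 99.4 and 93.8 CPM (-0.75, SE 0.04, adjusted p = 3.37e-19). Anln, the furrow scaffold anillin that binds RhoA, actin and myosin, went from 231, 233 and 224 CPM to 260.0, 264 and 268 CPM (0.20, SE 0.03, adjusted p = 5.41e-07). Neither gene overlapped between groups.

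On the mitotic chromosome, Mki67 and Top2a were lower. Mki67 encodes Ki-67, the proliferation marker that coats mitotic chromosomes. It stood at 1396, 1608 and 1402 CPM in the libraries labelled Mock and at 773, 809 and 808 CPM in those labelled STAT6 (-0.88, SE 0.06, adjusted p = 9.96e-06). Mock replicate 2 was again the highest library. Top2a, the topoisomerase that untangles sister chromatids, went from 551, 566 and 551 CPM to 387, 405 and 397 CPM (-0.49, SE 0.03, adjusted p = 6.35e-17).

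For 7 pairs of related members the difference of their log2 levels within a library, which the scaling of libraries does not move except through the pseudocount of 0.5 CPM, was compared between groups. In 6 pairs the groups did not overlap. The share for pairs of other genes was not computed. Among single genes, 37.7% did not overlap with STAT6 below and 36.9% with STAT6 above. The difference changed by -0.75 for Cdc25b minus Cdc25c, -0.58 for Spc24 minus Spc25, -0.45 for Ccnb1 minus Ccnb2 and -0.29 for Ska1 minus Ska3. It changed by 0.31 for Kif20a minus Kif20b and by 0.28 for Aurka minus Aurkb. Each of these had p = 0.1 in a 2-sided exact permutation test over 20 assignments, the smallest p that this design allows (adjusted p = 0.117 over the 7 pairs). For Bub1 minus Bub1b the change was 0.02 (exact permutation test, p = 0.6). No pair could pass 0.05 in this design.

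Beyond the 51 members, 133 further genes of mitosis and its control were set in 6 lists, and all 133 passed the filter. Of these, 85 were lower, 26 were higher and 22 did not pass, and the median was -0.26 in log2 units. That is 63.9% lower and 19.5% higher, where 36.8% and 35.8% of all genes tested were. Of the regulators of mitotic transcription 12 of 23 were lower (52.2%) and 8 higher (34.8%, near the share of all genes). Foxm1, the forkhead activator of G2/M genes, and Mybl2, which encodes B-MYB, had log2 fold changes of -0.45 and -0.61. The 2 lower genes with the smallest adjusted p were Nfyc, a subunit of the CCAAT-binding factor NF-Y (-1.01), and Rbl1, which encodes the pocket protein p107 (-0.59). The 2 such higher genes were Mybl1, which encodes A-MYB (1.32), and Rb1, the retinoblastoma gene (0.87). Foxm1 and Mybl2 were named for their role as activators, outside the rule for naming genes.

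APC/C subunits and regulators had 6 lower (35.3%) and 7 higher (41.2%) of 17, with a median of 0.03, shares near those of all genes (36.8% and 35.8%). Cdc27 (0.53) and Fbxo5, the APC/C inhibitor EMI1 (0.55), were higher. Anapc1, the largest scaffold subunit (-0.53), and Fzr1, the activator CDH1 (-0.46), were lower. Condensin and cohesin genes were mostly lower, 16 of 19 (84.2%, against 36.8% of all genes) with 1 higher, at a median of -0.36. Smc4, a core subunit of condensin, went from 291 ± 2.94 to 143 ± 6.41 CPM (-1.03), and the cohesin subunit Rad21 fell by 0.68 on the log2 scale. Wapl, which releases cohesin from chromosomes, was the gene called higher (0.18).

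Among other kinetochore and centromere genes 20 of 29 were lower (69.0%, against 36.8% of all genes) and 3 were higher, at a median of -0.35. Pmf1, a subunit of the MIS12 complex, went from 68.5 ± 2.44 to 28.4 ± 0.785 CPM (-1.27), and Kntc1, a subunit of the RZZ checkpoint complex, fell by 0.59 on the log2 scale. Ska2 (0.52), the third subunit of the SKA complex, and Zwint (0.33) were higher. Ska2 thus moved against Ska1 and Ska3.

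Among other genes of mitotic entry and exit 12 of 20 were lower (60%, against 36.8% of all genes) and 4 were higher (20%, against 35.8%), at a median of -0.27. The phosphatase gene Ppp1cc (-0.77) and the kinase gene Melk (-0.76) were lower. The 2 higher genes with the smallest adjusted p were Arpp19 (0.40) and Ensa (0.31), inhibitors of the phosphatase PP2A-B55. Among other spindle, centrosome and cytokinesis genes 19 of 25 were lower (76.0%, against 36.8% of all genes) and 3 were higher, at a median of -0.36. The chromatin protein gene Hmgb2 (-1.15) and Racgap1, the partner of Kif23 in centralspindlin (-0.58), were lower. Tubb4b (0.12) and Numa1 (0.14) were higher; with library totals alone 0 genes of this list were called higher.

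**Figure D4:**
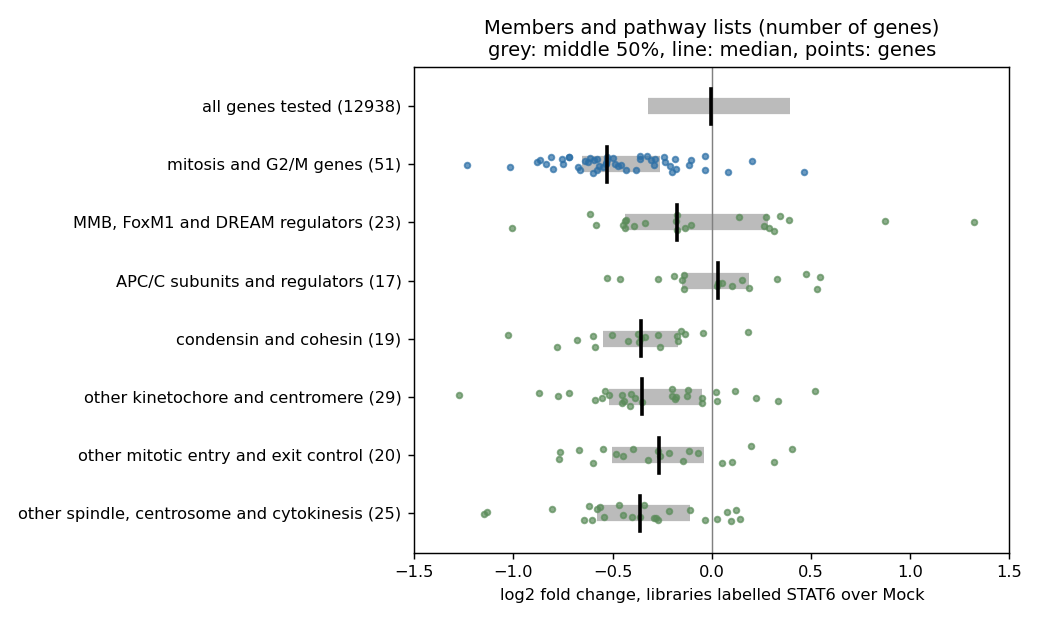
Log2 fold changes, libraries labelled STAT6 over those labelled Mock, of all genes tested, the 51 members and the 6 further lists, with the span between quartiles in grey, the median as a line and genes as points (not drawn for all genes). The members' median lies at -0.53, that of APC/C genes at 0.03 and that of all genes at -0.00.

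Genes that act upstream of this programme were measured in the same fit. Cdkn1a, which encodes the CDK inhibitor p21, was at 136, 136 and 142 CPM under the Mock label and at 603, 605 and 604 CPM under the STAT6 label (2.13, SE 0.03, adjusted p = 3.50e-35). Trp53, which encodes p53, was higher by 0.12 (adjusted p = 0.00334). Ccnd1, the G1 cyclin D1, was at 135, 138 and 137 against 817, 807 and 848 CPM (2.59). Whether these changes have a part in those of the mitotic genes was not tested.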

How the data were processed

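RNA was measured in 6 libraries. The authors deposited whole-number counts per gene symbol, not normalized. Per the submitters' processing notes FastQC, STAR, Salmon and edgeR were used and the build was GRCh37; the sources used here do not give versions, read assignment, strand setting or filters. The kit is stranded and selects polyadenylated RNA, per the labels' protocols. Totals were 23648304, 19894773 and 21096955 counts for STAT6 replicates 1 to 3 and 22368757, 22748691 and 29802693 for Mock replicates 1 to 3. One count is worth 0.0327 to 0.0515 CPM. Within groups, pairs of libraries differed by 1.46 to 2.48 times counting noise (median chi-square over genes), so none was a copy.

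Counts were fitted with edgeR 4.0.16 in R 4.3.3 (filterByExpr, TMM, robust glmQLFit, 2-sided glmQLFTest, group as the only term). Benjamini-Hochberg adjustment ran over all 12938 genes tested, and adjusted p-values in the text are from this fit unless another setting is named. SE is the log2 fold change over the root of the F statistic, and 95% intervals use the fit's degrees of freedom. A log2 fold change is STAT6 over Mock. The members and lists were chosen with earlier results of these data known. All members may be named. Values in every library are given for the 3 members of each role with the smallest adjusted p and for those that were higher, not past the threshold or changed at least 2-fold, with some others added. Of each further list, 2 genes per direction are named, those of smallest adjusted p. Alternatives were other scalings (DESeq2 size factors, library totals, upper quartile), filters (none, or 1 CPM in 3 libraries), DESeq2 1.42.0, limma-voom (limma 3.58.1), a replicate block, each library left out, an adjusted p of 0.01, glmTreat at 1.5-fold, and mtDNA genes or Gm26917 left out of the totals. Counts were simulated for the 12938 genes of this comparison, with 50 genes changed at each fold. There edgeR recovered 62% of genes changed 1.2-fold, 92% at 1.5-fold, 94% at 2-fold and 98% at 4-fold. It called 11 of 12547 unchanged genes. The share of changed genes was far smaller than the 72.6% called in the data. Recovery and false calls at such a share were not measured. Coordinates, sequences and promoter motifs of the mouse genes were not analysed here.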

Additional observations from a re-analysis of the deposited data

How the results depend on the processing

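Of the 51 members, 48 kept direction and call under each of 17 alternatives other than the test beyond 1.5-fold, and 0 reversed under any. The exceptions were Cdk1, Cenpf and Spc25, with values beside their results. The number of members lower ranged from 45 to 47 and of those higher from 2 to 3 with each library left out. Those fits called 34.5% to 36.2% of all genes lower, and 49.2% to 49.8% of all genes called were higher. In the further lists 83 to 89 genes were lower and 23 to 25 higher with each library left out. The test beyond 1.5-fold called 12 members lower and 0 higher, and 14 and 2 genes of the further lists. Of all genes it called 7.51% lower and 14% higher. That test asks for a larger change by construction. Same-numbered libraries of the groups had deviations correlated at 0.05, 0.10 and 0.03, so the numbers were not taken to pair them. Each library labelled STAT6 correlated best with its own number, whereas Mock replicate 3 correlated best with STAT6 replicate 1. With the replicate block 46 members were lower and 3 higher, and 86 and 26 genes of the further lists. That fit called 36.9% of all genes lower, and 49.3% of all genes called were higher. Library totals alone moved the median of all genes by -0.07 and called 47 members lower and 2 higher. In the further lists that setting called 96 and 19 genes against 85 and 26. Of all genes tested it called 42.3% lower, against 36.8% in the main fit. Of all genes called, 42.5% were higher with library totals alone, against 49.3% in the main fit. All 7 pair differences kept their sign with a pseudocount of 5 CPM and with each library left out. That of Bub1 minus Bub1b (0.02) was 2.69e-05 without STAT6 replicate 3, and its sign carries no information. Depth limits the least abundant members most, Spc24 with an SE of 0.09 and Pttg1 with 0.08.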
